A study of Mus musculus with 14 samples.

Results

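Slc5a7, Snorc and Cyp2d22 were the 3 genes described here, out of 6044 named genes in the processed array table, and their values were followed through 5 sorted populations of the mouse mammary gland. They were chosen because their signal was higher in the CD24medCD49f-/low population than in the other luminal population, and because their luminal replicates were taken to lie close together. The comparison of the luminal populations had therefore been used to choose them, and their values in any comparison with luminal arrays are given below as a description, without a test. Each gene was measured by 1 probe set, 1421428_at for Slc5a7, 1453089_at for Snorc and 1419039_at for Cyp2d22.

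All cells came from freshly dissociated mammary glands of virgin female C57BL/6J mice, 6 to 8 weeks old, and were double sorted after staining for CD45, CD31, Ter119, CD24, CD49f and Thy-1. RNA was hybridised to 14 Affymetrix mouse genome arrays. The luminal populations were CD24medCD49f-/low (2 arrays) and CD24highCD49fmed, which the study calls colony-forming luminal cells (3 arrays), and the 3 basal populations were Thy-1+CD24medCD49fhigh, Thy-1-CD24medCD49fhigh and CD24medCD49fmed, with 3 arrays each. The name CD24medCD49fmed is that of the labels, and the study writes CD24lowCD49fmed for its myoepithelial cells, which are taken here to be the same population. No animal carried a transgene or received a treatment, and it is not stated in the labels if replicates were separate animals or pools, so p-values measure only the spread between these arrays.

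Slc5a7 encodes the high-affinity choline transporter, best known from cholinergic nerve endings, where it brings choline back into the cell for the synthesis of acetylcholine. Snorc encodes a small transmembrane proteoglycan that carries chondroitin sulfate and is known from cartilage. Cyp2d22 encodes a cytochrome P450 of the CYP2D family, haem enzymes that oxidise drugs and other small molecules. In the mammary duct, luminal cells line the lumen and include hormone-sensing cells and the precursors of milk-secreting cells, while basal cells contract and lie against the basement membrane.

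The promoter of Slc5a7 is shown because this gene alone of the 3 had an entry among the promoter sequences used. It is taken from RefSeq, build GRCm38.p6, at chr17:54298985-54299284 on the minus strand, and runs from 250 bases before the transcription start to 50 bases after it. Capitals mark TATAAA, the only match among 5 motifs that were searched on both strands.

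Slc5a7 promoter: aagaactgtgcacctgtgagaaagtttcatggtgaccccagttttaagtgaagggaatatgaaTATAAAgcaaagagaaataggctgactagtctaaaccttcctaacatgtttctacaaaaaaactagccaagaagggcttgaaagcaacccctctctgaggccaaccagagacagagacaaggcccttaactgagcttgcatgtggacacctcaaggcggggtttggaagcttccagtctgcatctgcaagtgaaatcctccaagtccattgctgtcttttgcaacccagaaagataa

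The TATAAA match began 187 bases before the start, and 13.6% of 32851 promoters of the same length held this motif. No match was found for the CCAAT box, which 37.4% of promoters held, for the STAT motif TTCNNNGAA (8.3%), for the E-box CACGTG (7.15%) or for the palindromic estrogen response element (0.07%).

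The values are log2 signals from which the mean of each probe set over the 14 arrays was taken off, so 0 is average. They show how a gene varied between populations but not how strongly it was expressed, and levels of different genes cannot be compared. Slc5a7 reached 3.51 and 3.02 in the CD24medCD49f-/low arrays. In CD24highCD49fmed cells it was 1.46, 1.49 and 1.29. The basal values were -1.50, -1.23 and -1.25 in CD24medCD49fmed, -0.81, -1.21 and -1.31 in Thy-1+CD24medCD49fhigh and -1.12, -1.24 and -1.11 in Thy-1-CD24medCD49fhigh cells. The choline transporter thus formed 3 levels, with CD24medCD49f-/low cells highest, CD24highCD49fmed cells between and all 9 basal arrays lowest, and no overlap between these levels.

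Snorc was 2.10 and 2.12 in the CD24medCD49f-/low arrays, the closest pair among the 3 genes. In CD24highCD49fmed cells its values were 0.33, -0.02 and 0.19. Those in the basal arrays were -1.10, -0.64 and -0.98 for CD24medCD49fmed, -0.25, -0.65 and -0.11 for Thy-1+CD24medCD49fhigh and -0.49, -0.33 and -0.16 for Thy-1-CD24medCD49fhigh. The proteoglycan gene stood clear in CD24medCD49f-/low cells, while the lowest CD24highCD49fmed array lay only 0.097 log2 above the highest basal array. This last separation was lost when each array was centred on its median, where the gap became -0.74, and after quantile normalization, where it became -0.54.

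Cyp2d22 was 1.55 and 1.39 in the CD24medCD49f-/low arrays. In CD24highCD49fmed cells it was -0.19, -0.23 and -0.48. The basal values were -0.03, -0.11 and -0.50 in CD24medCD49fmed, 0.49, -0.91 and -0.40 in Thy-1+CD24medCD49fhigh and -0.10, -0.95 and 0.46 in Thy-1-CD24medCD49fhigh cells. The P450 gene was high in CD24medCD49f-/low cells, and the other 4 populations overlapped each other. Its lowest CD24medCD49f-/low array lay 0.90 log2 above the highest basal array, a gap that fell to 0.019 when each array was centred on its median.

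**Figure D1:**
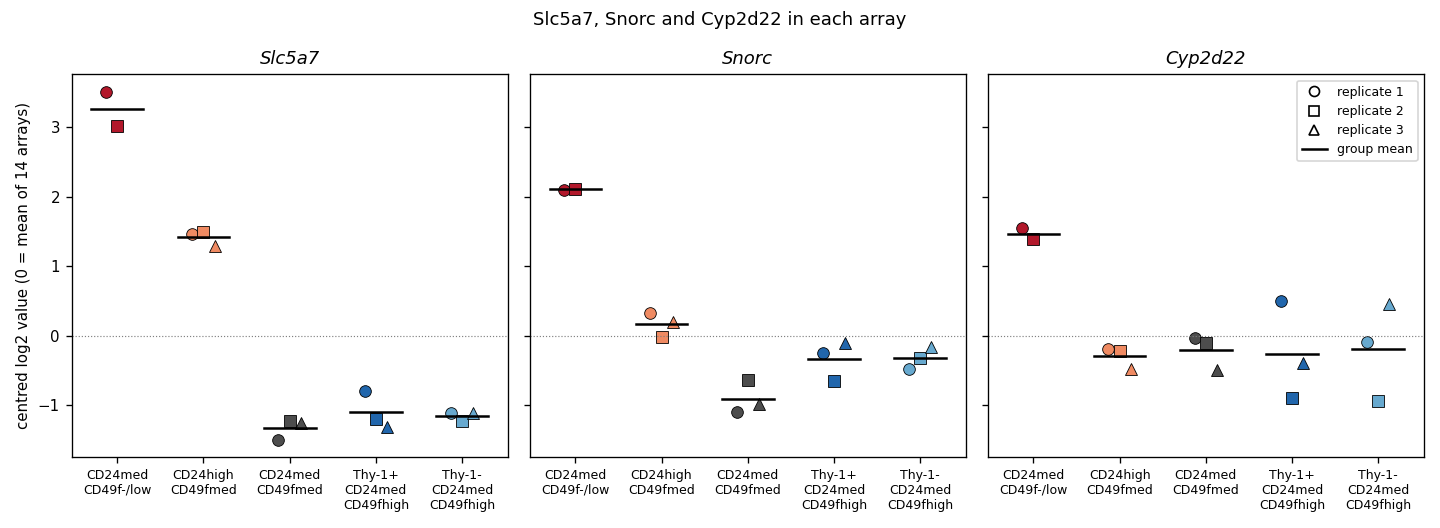
Centred log2 values of Slc5a7, Snorc and Cyp2d22 (y axis, 0 is the mean of 14 arrays) in each array of the 5 sorted populations (x axis), with symbols for replicate numbers and a line at each population mean. The 2 CD24medCD49f-/low arrays were highest for each gene, Slc5a7 fell in 2 steps from 3.27 through 1.41 to below 0, and Cyp2d22 showed only the first step.

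The CD24medCD49f-/low mean exceeded the CD24highCD49fmed mean by 1.94 log2 for Snorc (SE 0.19, 3.83-fold), by 1.85 for Slc5a7 (SE 0.21, 3.61-fold) and by 1.77 for Cyp2d22 (SE 0.19, 3.41-fold), with 2 against 3 arrays. Among 7190 rows of the table these differences ranked 7, 9 and 13 by signed size. The distance from the lowest CD24medCD49f-/low array to the highest CD24highCD49fmed array was 1.77 log2 for Snorc, 1.58 for Cyp2d22 and 1.53 for Slc5a7. The CD24medCD49f-/low arrays lay above the CD24highCD49fmed arrays in 15.2% of all rows, and 5.59% of rows passed limma's test, 2.57% as higher, from which nothing is read for genes chosen on this contrast.

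Set against the mean of the 3 basal populations, CD24medCD49f-/low cells were higher by 4.46 log2 for Slc5a7 (SE 0.41, 22.1-fold), by 2.63 for Snorc (SE 0.41, 6.19-fold) and by 1.70 for Cyp2d22 (SE 0.48, 3.24-fold). The difference between CD24highCD49fmed and basal cells was 2.61 log2 for Slc5a7 (SE 0.32, 6.11-fold), 0.69 for Snorc (SE 0.32, 1.62-fold) and -0.07 for Cyp2d22 (SE 0.38). With array medians set equal, these became 0.34 for Snorc and -0.43 for Cyp2d22. The choline transporter was therefore raised in both luminal populations, whereas the CD24highCD49fmed level of Cyp2d22 lay inside the basal range. In 25.4% of rows all CD24highCD49fmed arrays lay above all basal arrays, and 2.03% of rows held both steps without overlap. Slc5a7 was among them, as was Snorc with a second gap of only 0.097 log2. The first step is the contrast used to choose the genes. Limma called 17.5% of rows between CD24medCD49f-/low and basal cells and 37.2% between CD24highCD49fmed and basal cells. These comparisons share arrays with each other. In sorted populations measured in bulk, fewer cells that express a gene and less RNA per cell cannot be told apart.

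The spread of replicates also differed between the genes. Within the luminal populations the pooled SD was 0.22 log2 for Slc5a7, 0.14 for Snorc and 0.14 for Cyp2d22, where the median of all rows was 0.22. The luminal replicates of Slc5a7 were thus no closer than those of a typical row. Within the basal populations it was 0.18 for Slc5a7, 0.23 for Snorc and 0.60 for Cyp2d22. The basal values of Slc5a7, Snorc and Cyp2d22 each spanned less than the 2.0 log2 that the authors' filter required of a row. These genes therefore passed that filter only through the luminal arrays, and their basal spread was not compared with that of other rows.

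The sort labels were checked against marker genes. All 9 luminal epithelial markers, among them Krt8 and Krt18, passed the test as higher in CD24medCD49f-/low and in CD24highCD49fmed cells than in the basal cells. All 9 measured basal markers, including Krt5, Krt14 and Trp63, passed as lower. The luminal populations were set apart by 7 of 9 measured alveolar and luminal progenitor genes, which were higher in CD24medCD49f-/low cells, against 2.57% of all rows. They included Btn1a1, a milk fat globule protein (1.90 log2, SE 0.41), Aldh1a3, a retinaldehyde dehydrogenase (1.62, SE 0.20), Kit, the stem cell factor receptor (1.39, SE 0.25) and Lalba, the milk protein alpha-lactalbumin (1.30, SE 0.22), with limma adjusted p of 0.0375, 0.0113, 0.0222 and 0.0201. Of 7 measured hormone-sensing genes only Foxa1, a forkhead factor that acts with the estrogen receptor, passed, as lower (-1.14, SE 0.23, limma adjusted p = 0.0311), where 3.02% of all rows passed as lower. Of these 7 genes, 6 had an unadjusted limma p under 0.05, beside 1941 of all 7190 rows in either direction. The median difference was 1.10 for the alveolar and progenitor list and -0.87 for the hormone-sensing list, where that of all rows was -0.14. The study names CD24highCD49fmed cells as luminal progenitors, whereas the progenitor genes of this list were higher in the other luminal population.

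Myeloid markers were also uneven in the CD24medCD49f-/low population. The median of the 4 measured of 10 myeloid markers was 2.95 in its replicate 1 and 0.23 in its replicate 2, and ranged from -0.72 to 0.14 in the other 12 arrays. S100a9, a calcium-binding protein of neutrophils, passed between the luminal populations (3.36 log2, SE 0.66, limma adjusted p = 0.0296), and Ptprc, which encodes CD45, did not (0.46, SE 0.22, limma adjusted p = 0.208). Against CD24highCD49fmed cells, replicate 2 alone gave differences of 1.95 for Snorc, 1.69 for Cyp2d22 and 1.61 for Slc5a7. Fibroblast markers (5 of 6 measured) had medians of -0.15 and -1.20 in CD24medCD49f-/low cells and -1.70 to -1.36 in CD24highCD49fmed cells, and Col3a1, a fibrillar collagen, passed (2.22 log2, SE 0.45, limma adjusted p = 0.0318). The study's methods also list an antibody against CD140α, the product of the fibroblast marker Pdgfra, which had 0.75 (SE 0.19, limma adjusted p = 0.0538). The part of myeloid and fibroblast cells in the result was not tested.

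Other cell types in which the 3 genes are well known were looked for by their markers. Chondrocyte markers (3 of 6 measured) had medians of -0.62 and -0.71 in CD24medCD49f-/low arrays and -1.73 to -1.26 in CD24highCD49fmed arrays, and 0 passed limma's test between them. In the basal arrays these medians ranged from -0.20 to 1.48. Between the luminal populations the 3 markers had a median difference of 0.80 log2, where all rows had -0.14, and 2 of them an unadjusted p under 0.05. Schwann cell and nerve markers (4 of 9 measured) had medians of -0.71 and -0.91 in CD24medCD49f-/low cells and -1.27 to -0.88 in CD24highCD49fmed cells. None of the 5 hepatocyte markers was among the measured genes, while endothelial (5 of 5) and adipocyte markers (2 of 5) had no member that passed between the luminal populations. In the basal arrays both lists were uneven. Endothelial medians were 3.05, 0.84 and -0.96 in CD24medCD49fmed, 2.79, 0.07 and -0.43 in Thy-1+CD24medCD49fhigh and 0.76, -0.75 and -0.77 in Thy-1-CD24medCD49fhigh cells. Adipocyte medians were 2.54, 1.09 and -0.46, then 1.98, 0.52 and 0.76, then 0.11, 0.29 and -0.83, in the same order. The part of such cells in the basal values was not tested.

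The basal populations had played no part in the choice of genes, and the 3 genes were tested there, with 2 limits. All 3 had passed the authors' filter only through the luminal arrays, whereas other rows could pass it through basal differences. The shares of all rows given below are therefore not a like background for them. Signal over background was not used, so a basal signal too low to show a difference would not have been seen. The question was whether the Thy-1 fractions and the CD24medCD49fmed cells differed in these genes. None of the 3 genes passed limma's test between any pair of basal populations, where 0.0417% of rows passed between the Thy-1 fractions and 0.0% for each fraction against CD24medCD49fmed. At an unadjusted p under 0.05, 380, 383 and 84 rows lay past the threshold in the order Thy-1+ against Thy-1-, Thy-1+ against CD24medCD49fmed and Thy-1- against CD24medCD49fmed, and the 3 genes were not among them. With the replicate number as a block, 55 rows passed between Thy-1+CD24medCD49fhigh and CD24medCD49fmed cells. Without the block, 856 passed there when Thy-1+CD24medCD49fhigh replicate 2 was left out. None of the 3 genes passed in either fit.

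Snorc came closest to a difference, being 0.58 log2 higher in Thy-1-CD24medCD49fhigh than in CD24medCD49fmed cells (SE 0.29, 95% interval -0.07 to 1.24, limma unadjusted p = 0.0748 and adjusted p = 0.999, where an exact test of 3 against 3 arrays cannot go below 0.10). The 3 Thy-1- arrays, from -0.49 to -0.16, lay above the 3 CD24medCD49fmed arrays, from -1.10 to -0.64, an order that 1.81% of rows showed. Nothing is read from that share, because it includes rows that passed the authors' filter through basal differences. This pair of populations is also named because it came closest. In the Thy-1+CD24medCD49fhigh cells Snorc was higher than in CD24medCD49fmed cells by 0.57 (SE 0.50, interval -0.51 to 1.66, limma adjusted p = 0.572), and the arrays overlapped. Between the Thy-1 fractions the difference was -0.01 (SE 0.68, interval -1.37 to 1.34, limma adjusted p = 0.993). An exact permutation test over all assignments of the 9 basal arrays, two-sided, gave p = 0.075 for any difference in Snorc. Without Thy-1+CD24medCD49fhigh replicate 2 the exact p was 0.0286. With exchanges only within a replicate number it was 0.222.

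Slc5a7 differed by 0.05 log2 between the Thy-1 fractions (SE 0.68, interval -1.31 to 1.40, limma adjusted p = 0.981), by 0.22 between Thy-1+CD24medCD49fhigh and CD24medCD49fmed cells (SE 0.50, interval -0.86 to 1.30, adjusted p = 0.817) and by 0.17 between Thy-1-CD24medCD49fhigh and CD24medCD49fmed cells (SE 0.28, interval -0.45 to 0.80, adjusted p = 0.999). The exact permutation p was 0.436. For Cyp2d22 the same differences were -0.08, -0.06 and 0.02 log2, with SEs of 0.69, 0.54 and 0.39, limma adjusted p of 0.973, 0.959 and 0.999 and an exact permutation p of 0.996. The joint limma F test over the 3 basal populations called 0.0% of rows at adjusted p under 0.05 and 349 at an unadjusted p under 0.05, and its adjusted p was 0.764 for Snorc, 0.961 for Slc5a7 and 0.998 for Cyp2d22. The limma intervals between the Thy-1 fractions allowed changes of more than 1 log2 either way. Their SEs were almost the same for Snorc, Slc5a7 and Cyp2d22 (0.68, 0.68 and 0.69), although the replicates spread differently. The pooled SD of these fractions was 0.23 for Snorc and 0.20 for Slc5a7, while Cyp2d22 had an SD of 0.71 in each. Limma's moderation draws a row's variance towards that of all rows. For Snorc and Slc5a7 the intervals were thus wider than their own replicates alone would give. Smaller differences were not excluded for any of the 3 genes.

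**Figure D2:**
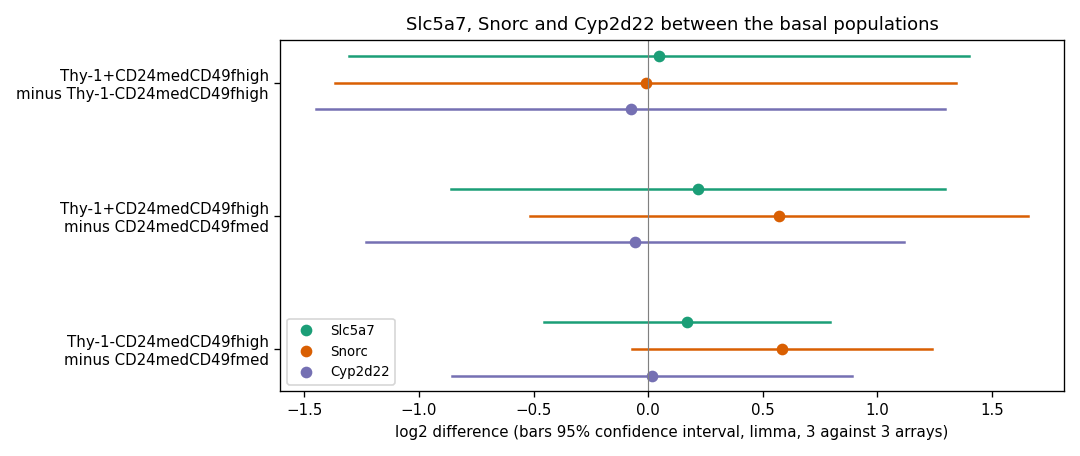
Log2 differences of Slc5a7, Snorc and Cyp2d22 (x axis, points, with 95% confidence intervals from limma) for the 3 pairs of basal populations (y axis). Every interval crossed 0, and that of Snorc in Thy-1-CD24medCD49fhigh minus CD24medCD49fmed cells came nearest to excluding it (-0.07 to 1.24).

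Thy-1+CD24medCD49fhigh arrays stood apart in their general signal. The median over all rows was -0.74 in its replicate 1 and -0.51 in its replicate 3, and between -0.15 and 0.28 in the other 12 arrays. The medians of the measured fibroblast markers were 2.14, 0.21 and 2.89 in its replicates 1, 2 and 3, and those of the Schwann cell and nerve markers 1.94, 0.53 and 2.13. Snorc was higher in replicates 1 and 3 (-0.25 and -0.11) than in replicate 2 (-0.65), so within this population it was higher in the arrays with more of these markers. Other basal arrays did not share this order. CD24medCD49fmed replicate 1 had a fibroblast median of 0.71 and the lowest Snorc value of all 14 arrays (-1.10). In Thy-1-CD24medCD49fhigh cells the fibroblast medians were -0.22, 0.03 and 0.03, with Snorc at -0.49, -0.33 and -0.16. Whether cells with these markers had a part in the Snorc values was not tested.

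Slc5a7 belongs to the SLC5 family of sodium-coupled transporters, and its relatives showed a similar luminal rise. Of the other 5 measured family members, 4 were higher in CD24medCD49f-/low than in basal cells and 4 in CD24highCD49fmed than in basal cells, where 8.16% and 23.0% of all rows passed in that direction. Slc5a1, the intestinal sodium and glucose cotransporter, was 4.16 log2 higher in CD24medCD49f-/low than in basal cells (SE 0.42, limma adjusted p = 2.14e-06). Slc5a5, the iodide transporter, was 4.04 log2 higher (SE 0.63, limma adjusted p = 0.000202). Slc5a8, a monocarboxylate transporter, was 3.72 higher (SE 0.43, limma adjusted p = 1.12e-05) and Slc5a6, the multivitamin transporter, 1.77 higher (SE 0.43, limma adjusted p = 0.0075).

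Only Slc5a1 of these relatives also passed between the luminal populations, being 1.51 log2 higher in CD24medCD49f-/low cells (SE 0.26, limma adjusted p = 0.0219). Slc5a5 had -0.22 there (SE 0.23, limma adjusted p = 0.571), Slc5a8 0.77 (SE 0.27, adjusted p = 0.12) and Slc5a6 -0.66 (SE 0.39, adjusted p = 0.303). Slc5a3, the myo-inositol transporter, passed in none of the 3 comparisons. The family median was 0.42 between the luminal populations, where all rows had -0.14, and 3.72 against the basal cells, where all rows had 0.23.

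The genes that handle choline were compared in the same way. Of 13 measured genes for choline transport and use other than Slc5a7, 0 passed limma's test between the luminal populations, and 3 had an unadjusted p under 0.05, with a median difference of -0.20 log2. Their differences ranged from -0.97 for Slc44a4 to 0.54 for Pcyt1b. Chat, which makes acetylcholine, and Slc18a3, which loads it into vesicles, were not among the measured genes. Ache, which breaks it down, differed by -0.36 (SE 0.83, limma adjusted p = 0.8). Of the receptors for acetylcholine 1 of 21 was measured, the nicotinic subunit Chrnb1, with 0.17 (SE 0.23, limma adjusted p = 0.649).

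Against the basal cells some choline genes were higher. In CD24highCD49fmed cells 6 of 13 passed as higher and 2 as lower, where 23.0% and 14.2% of rows passed. Those higher were the choline transporter-like genes Slc44a4 (1.91 log2, SE 0.35), Slc44a3 (1.74, SE 0.43) and Slc44a1 (1.01, SE 0.35), and Chpt1, Chka and Pcyt1a, enzymes of phosphatidylcholine synthesis (1.61, 1.04 and 0.99). After each array was centred on its median 3 genes of the list passed as higher. In CD24medCD49f-/low cells Chka, choline kinase (1.54, SE 0.44, limma adjusted p = 0.0196), and Chpt1 (1.37, SE 0.44, limma adjusted p = 0.0363) were higher, and neither passed without replicate 1 of that population.

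No other measured cytochrome P450 gene passed between the luminal populations. Of these 8 genes 0 passed limma's test and 0 had an unadjusted p under 0.05, and their differences lay between -0.37 for Cyp39a1 and 0.13 for Cyp2j9, with a median of 0.02. Against the basal cells Cyp7b1, an oxysterol hydroxylase (-2.24 log2, SE 0.53, limma adjusted p = 0.00648), Cyp4b1 (-2.00, SE 0.54, adjusted p = 0.0147) and Cyp2j9 (-1.54, SE 0.42, adjusted p = 0.0151) were lower in CD24medCD49f-/low cells, where 9.29% of rows passed as lower. None of these 3 passed without replicate 1 of that population. In CD24highCD49fmed cells 4 P450 genes were lower and 2 higher than in basal cells, where 14.2% and 23.0% of rows passed. Of 5 measured electron partners and regulators of P450 enzymes, 0 passed limma's test between the luminal populations and 0 had an unadjusted p under 0.05.

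In the genome Cyp2d22 lies next to other genes of its family. In RefSeq the nearest 3 protein-coding genes on one side are Cyp2d11, Cyp2d10 and Cyp2d9, and none was among the measured genes. Members of this family are similar in sequence, and whether the probe set also binds their transcripts was not tested. Of the nearest protein-coding genes of Snorc (3 on each side) only Efhd1 and Gigyf2 were measured, with 0.29 log2 (SE 0.23) and -0.09 (SE 0.18) between the luminal populations. Of those of Slc5a7 only Sgo1 was measured, with -0.57 (SE 0.24). None of these neighbours passed, with limma adjusted p of 0.442, 0.782 and 0.174.

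Many cartilage and proteoglycan matrix genes were lower in luminal than in basal cells. The list median was -2.18 log2 for CD24highCD49fmed and -1.35 for CD24medCD49f-/low cells against the basal cells. More genes passed for CD24highCD49fmed cells, but these had 3 arrays against 2, and limma called 37.2% of all rows there against 17.5%. Of 15 other measured genes of this list, 11 were lower in CD24highCD49fmed than in basal cells and 6 in CD24medCD49f-/low than in basal cells, where 14.2% and 9.29% of rows passed. The decreases in CD24medCD49f-/low cells were -5.67 log2 for Matn2, a matrilin (SE 0.40, limma adjusted p = 1.12e-07), -4.21 for Vcan, the large proteoglycan versican (SE 0.57, limma adjusted p = 5.12e-05), and -3.67 for Bgn, biglycan (SE 0.47, limma adjusted p = 2.98e-05). Fmod, Dcn and Col11a1 were also lower, with differences of -2.66, -2.30 and -1.35. Sox9, a factor that drives cartilage genes and is also expressed in mammary epithelium, was the only one that was higher (2.00, SE 0.42, limma adjusted p = 0.00251), and it did not pass without CD24medCD49f-/low replicate 1.

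Between the luminal populations 2 of the 15 passed as higher in CD24medCD49f-/low cells. They were Prelp, a leucine-rich repeat proteoglycan (1.09 log2, SE 0.25, limma adjusted p = 0.0435), and Sox6, a partner of Sox9 (0.98, SE 0.22, limma adjusted p = 0.0422). The list median was 0.44 here, where all rows had -0.14, and 8 of the 15 had an unadjusted limma p under 0.05, beside 1941 of all 7190 rows. Of 8 measured genes for chondroitin sulfate synthesis, the chain that Snorc carries, 0 passed as higher and Chsy3, a chondroitin synthase, was lower (-1.34, SE 0.22, limma adjusted p = 0.0199). Against basal cells 5 of 8 were lower in CD24medCD49f-/low cells, among them Dse (-2.96), Chsy1 (-2.68) and Chst15 (-2.30), and 3 without replicate 1.

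The calls between the luminal populations rested on few arrays. Of 7190 rows, 402 passed in the fit of the 5 luminal arrays and 4 when all 14 arrays shared 1 fit. Leaving out single arrays, 0 passed without CD24medCD49f-/low replicate 1 (770 at an unadjusted p under 0.05), 145 without CD24highCD49fmed replicate 2 and 3 without CD24highCD49fmed replicate 3. Of these 402, 185 were higher and 217 lower in CD24medCD49f-/low cells, and the split became 282 to 123 with the array medians set equal and 246 to 138 with quantile normalization. Against the basal cells the split of 587 higher and 668 lower in CD24medCD49f-/low cells likewise became 517 and 873 after centring. For CD24highCD49fmed cells 1651 higher and 1021 lower became 1045 and 1306 after centring and 1297 and 1217 after quantile normalization. Limma called 0 genes of the choline, SLC5, P450, cartilage and chondroitin lists in the basal comparisons, and at most 3 genes of a list had an unadjusted p under 0.05 in any of them.

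**Figure D3:**
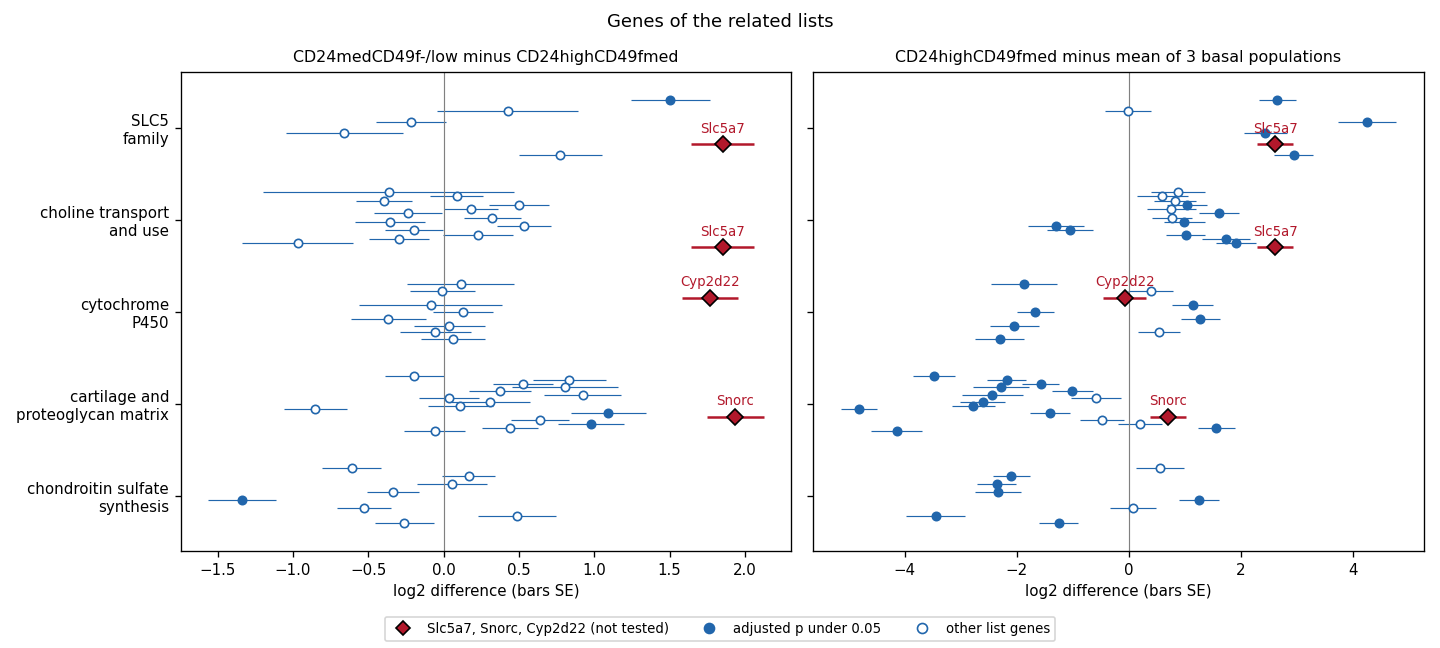
Log2 differences with SE (x axis) of the measured genes of 5 lists (y axis), between CD24medCD49f-/low and CD24highCD49fmed cells on the left and between CD24highCD49fmed and the mean of 3 basal populations on the right. Filled points passed limma's test at adjusted p under 0.05, and diamonds mark Slc5a7, Snorc and Cyp2d22, which were not tested. On the left the 3 genes lay at 1.77 to 1.94, right of the other list genes, and on the right they lay at 2.61 (Slc5a7), 0.69 (Snorc) and -0.07 (Cyp2d22).

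The genes whose values lay closest to each of the 3 over the 14 arrays were found by the root mean square difference in log2 value. Those closest to Slc5a7 were Clic6, a chloride channel family protein (0.22 log2), Aldh1a3 (0.25), Slc5a1 (0.29), Atp6v1b1, a subunit of the proton pump (0.30), and Tspan33, a tetraspanin (0.36). Their means in CD24medCD49f-/low cells were 3.22, 3.09, 2.99, 3.38 and 2.63, beside 3.27 for Slc5a7. Their CD24highCD49fmed means lay between 1.36 and 1.58, beside 1.41 for Slc5a7.

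The nearest genes to Snorc were Ccrl2, a chemerin-binding receptor (0.33 log2), Arhgef6 (0.36), Ntn1, the guidance cue netrin-1 (0.36), Lalba (0.38) and Aldoc, a glycolytic aldolase (0.39). Those nearest to Cyp2d22 were Fads2, a fatty acid desaturase (0.33), Xdh, xanthine dehydrogenase, which also takes part in milk fat secretion (0.36), the mechanosensitive channel Piezo1 (0.42), the pseudokinase Peak1 (0.44) and Cst3, cystatin C (0.44). The 3 genes were not each other's nearest. Cyp2d22 ranked 74 and Slc5a7 1285 in closeness to Snorc, and Snorc ranked 61 in closeness to Cyp2d22 and 128 to Slc5a7. The least alike were Slc5a7, which ranked 5205 in closeness to Cyp2d22, and Cyp2d22, which ranked 933 to Slc5a7.

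**Figure D4:**
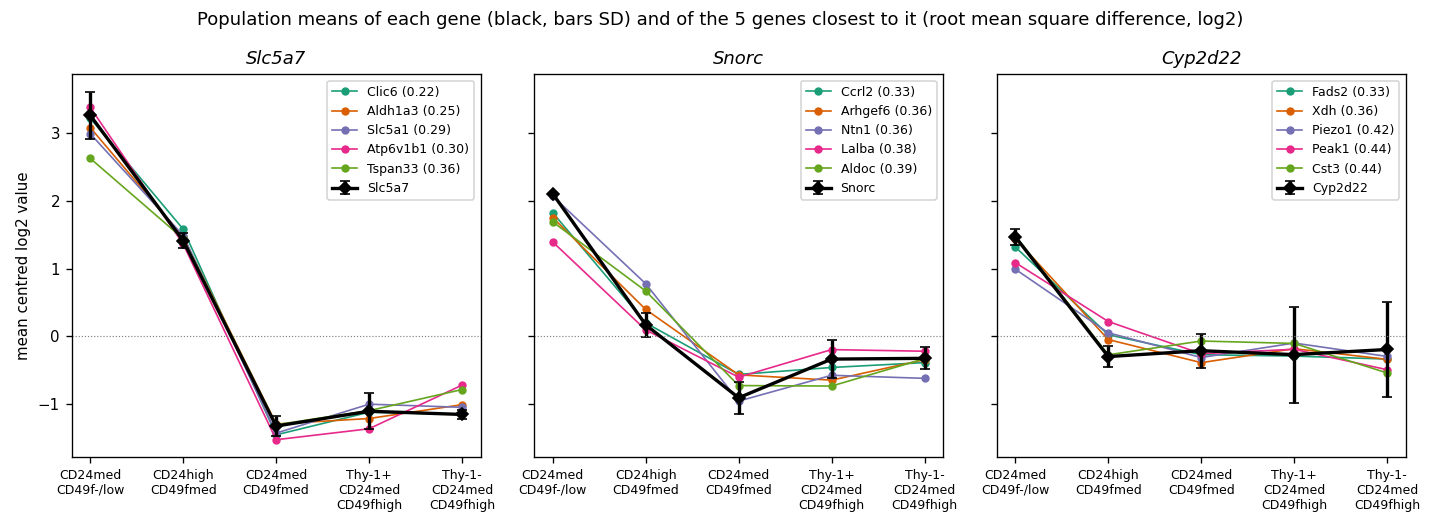
Population means of the centred log2 value (y axis) of Slc5a7, Snorc and Cyp2d22 (black, bars SD) and of the 5 genes closest to each (colours, root mean square difference over 14 arrays in brackets) in the 5 populations (x axis). Genes near Slc5a7 fell in 2 steps, while those near Cyp2d22 were high only in CD24medCD49f-/low cells, where Cyp2d22 had a mean of 1.47.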

How the data were processed

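RNA of 5 sorted mammary populations was measured on 14 arrays. The authors used MIDAS for robust multichip average (RMA) normalization and Cluster 3.0 to remove probe sets of low signal or under 4-fold range, then subtracted each probe set's mean, and deposited the result as log2 values. GCRMA also appears in the submitters' notes, and the sources used here give no versions. No row had a range below 2.0 log2. Signal over background was not used, and the number of arrays limits the precision.

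Of 9645 probe sets, 8499 with 1 gene symbol were averaged to 6044 genes (1765 had more than 1 probe set), and 199 with several symbols and 947 with none were kept as rows, giving 7190. Groups came from the sample titles. Populations were compared with limma 3.58.1 (moderated tests by lmFit and eBayes, run in R 4.3.3) on the arrays of the groups compared, two-sided, with Benjamini-Hochberg adjustment over all rows and a threshold of 0.05. The fits were tested on simulated data. The rank products of the study's methods were not used. For basal differences of the 3 genes an exact permutation test was added, which for 3 against 3 arrays cannot go below 0.10, so the 3 basal populations were permuted together. Figures were drawn with matplotlib 3.10.9.

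The 3 genes and the gene lists were chosen with earlier results of these data known. The genes named are these 3, the 5 closest to each, and up to 4 members of each list that passed in each direction between the luminal populations. Genes named for the comparisons with basal cells, list members that did not pass and the genomic neighbours were chosen after their values were seen, as were the marker genes named. Motifs were searched in RefSeq promoters, where Slc5a7 alone of the 3 had an entry.

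Same-numbered arrays deviated together for CD24medCD49fmed with Thy-1+CD24medCD49fhigh (r from 0.386 to 0.392 over genes, 3 pairs) and with Thy-1-CD24medCD49fhigh (0.328 to 0.558), but not between the Thy-1 fractions (-0.16 to 0.25). The labels do not say what a replicate number stands for. Arrays with different numbers were not set beside these, so a shared source was not tested. The luminal populations share only 2 numbers. Alternatives were all arrays in 1 fit, each probe set on its own row, median centring, quantile normalization, array weights, a replicate block and leaving out each replicate. The effect of median centring and of CD24medCD49f-/low replicate 1 on list counts was added after the data were seen.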

Additional observations from a re-analysis of the deposited data

How the results depend on the processing

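The 3 differences between the luminal populations kept their direction under every alternative, and moved by more than the replicate SD only for Snorc (2.11 log2 with median centring, 2.24 with quantile normalization), Cyp2d22 (1.94 and 1.98) and Slc5a7 when an array of CD24medCD49f-/low was left out. Leaving out each array in turn gave 1.84 to 2.02 for Snorc, 1.68 to 1.85 for Cyp2d22 and 1.61 to 2.10 for Slc5a7. Over all alternatives 18 of the 3 genes' differences between basal populations changed sign. The smallest limma adjusted p of the 3 genes between any pair of basal populations was 0.201. Between the Thy-1 fractions Snorc became 0.40 with median centring, 0.28 with quantile normalization and 0.10 with array weights, Cyp2d22 0.34 with median centring, and Slc5a7 -0.085 with array weights. Leave-one-out ranges there were -0.12 to 0.15 for Snorc, -0.46 to 0.25 for Cyp2d22 and -0.10 to 0.15 for Slc5a7. Between Thy-1+CD24medCD49fhigh and CD24medCD49fmed cells Cyp2d22 became 0.41 with median centring and 0.21 with quantile normalization, with a leave-one-out range of -0.44 to 0.26, and between Thy-1-CD24medCD49fhigh and CD24medCD49fmed cells its range was -0.31 to 0.39. With each array left out, the exact permutation p for Snorc among basal populations ranged from 0.0286 (without Thy-1+CD24medCD49fhigh replicate 2) to 0.161, that of Cyp2d22 from 0.575 to 1.0 and that of Slc5a7 from 0.139 to 0.854, and with exchanges only within a replicate number these were 0.222, 1.0 and 0.583. The exact p of Slc5a7 was 0.075 with median centring and 0.0571 with quantile normalization.

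The count of rows called between the luminal populations was 402, and became 4 with all arrays in 1 fit, 608 by probe set, 727 with array weights and 829 with the replicate block, and 0 to 662 with each array left out. For CD24medCD49f-/low against basal cells 1255 became 3361 with array weights and 303 to 1756 with each array left out (303 and 316 without each CD24medCD49f-/low array). For CD24highCD49fmed against basal cells 2672 became 4457 with array weights and 1588 to 3759. Between the Thy-1 fractions 3 became 0 with all arrays, by probe set, with median centring and with quantile normalization, 199 with array weights, 5 with the replicate block and 0 to 10. For Thy-1+CD24medCD49fhigh against CD24medCD49fmed cells, 0 became 4 with array weights, 55 with the replicate block and 0 to 856, the highest without Thy-1+CD24medCD49fhigh replicate 2, which also took the joint F test from 0 to 636 (range 0 to 636). For Thy-1-CD24medCD49fhigh against CD24medCD49fmed cells the range was 0 to 1. The causes were not tested. The replicate block, whose numbers are not explained by the labels, changed no call of the 3 genes.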
